A study of Mus musculus with 2 samples.

Results

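Scavenger and endocytic ligand receptors are the 10 genes Scara3, Scara5, Colec12, Msr1, Scarb1, Scarb2, Cd36, Stab1, Lrp1 and Mrc2, found by symbol among the 21829 genes of the deposited values. They are the receptor genes themselves, without their collagen ligands, and the list was drawn up with the values of both libraries known, so that it counts as selected on their levels and differences. These are therefore given as a description. The study compared WT C2C12 cells, an immortalised mouse myoblast line, with a Gne KO line made from it by CRISPR–Cas9, in which an indel in the second exon of Gne leads to an early stop. Gne encodes the enzyme that starts sialic acid synthesis. The methods describe isolation of the KO cells as single clones and routine growth of C2C12 cells in serum-containing medium. For the sequenced cells they name no further treatment. There is 1 RNA sequencing library of each line, so no value has a replicate error, no test between the lines is possible and what Gne does to a value and what sets this clone apart cannot be told apart.

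Scavenger receptors are surface proteins that bind modified lipoproteins, lipids, polyanions and cell debris. They belong to structurally unrelated classes, of which the class A proteins carry a collagen-like stretch and the CD36 family spans the membrane at both of its ends. The larger endocytic receptors LRP1, of the LRP family, and MRC2, of the mannose receptor family, take up extracellular proteins through clathrin-coated pits. LRP1 clears proteases with their inhibitors, and MRC2 carries collagen fragments to the lysosome. In muscle tissue several of these receptors are best known from macrophages, endothelium and fibroblasts rather than from myoblasts.

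The values are read here as FPKM, the fragments counted for a gene relative to its transcript length and to the depth of the library, a scale on which genes of different length can be set side by side. The values summed to 568543 FPKM in WT and 574253 FPKM in the KO-labelled library. Gne itself had 6.67 FPKM in WT and 7.34 FPKM in the KO-labelled library. An early stop need not lower the RNA, so Gne does not tell which library carries the edit, and all directions given rest on the labels. Differences are log2((KO + 1)/(WT + 1)), a scale that understates those of low genes, and a call is a difference of more than 2-fold on it. Where a pair of values is given for a gene, the first is that of WT. The filter was a mean of at least 1 FPKM over both libraries, which 10542 genes passed, and the quartiles of their differences were -0.21 and 0.23.

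The 10 receptors fell into a group of 5 with values between 14.02 and 143.6 FPKM in either library and a group of 5 that never exceeded 0.336 FPKM. The first group held Lrp1, Mrc2, Scarb2, Scarb1 and Colec12. Lrp1 and Mrc2 were more than 2-fold higher in the KO-labelled library, Colec12 and Scarb1 were higher by less than that, and Scarb2 was slightly lower. The 2 calls are 40.0% of the 5 genes, beside 2.84% of all genes past the same filter. With a loss of more than 2-fold there were 0 of the 5, beside 3.43% of all genes. Some excess in the KO-labelled library, of any size, was seen for 4 of the 5, beside 50.7% of all genes. Since the list was made with these values known, nothing is read from these shares. The median difference of the 5 was 0.57 on the log2 scale, against 0.0061 for all genes past the filter. Summed over the 10 genes, the values were 153.7 FPKM in WT and 262.1 FPKM in the KO-labelled library, of which Lrp1 made up 45.4% and 54.8%. Without Lrp1 the sums were 83.8 and 118.5 FPKM.

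**Figure D1:**
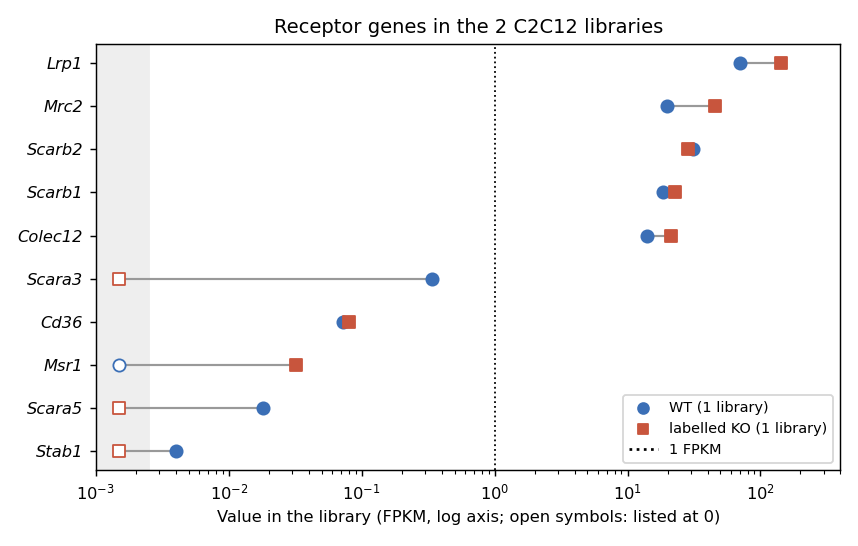
Value of each receptor gene in FPKM on a log axis, with a circle for the WT library and a square for the KO-labelled library. Lrp1, Mrc2, Scarb2, Scarb1 and Colec12 sit at 14.02 FPKM or more in both libraries, and the other 5 genes lie at 0.336 FPKM or below, with open symbols in the shaded strip where a gene is listed at 0.

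Lrp1, the large LRP family member that removes protease-inhibitor complexes and matricellular proteins from the cell surface, had the highest value of the 10. It had 69.8 FPKM in WT and 143.6 FPKM in the KO-labelled library. Its level was thus the 1277th highest of all genes in the first and the 599th highest in the second. The ratio was 2.06 and the difference 1.03 on the log2 scale, just past the 2-fold line, and 2.71% of the genes past the filter had a larger rise. The call depended on the settings, since the difference was 0.99 with 5 in place of 1 added to each value, where 0.968% of all genes were still called. Lrp1 lies on chromosome 10, at chr10:127374012-127457017 of GRCm39, on the minus strand, and its main transcript of 14906 bases has 89 exons in the GENCODE annotation. The 504 genes of chromosome 10 past the filter had a median difference of 0.30. The 10 nearest genes on each side of Lrp1 had a median of 0.090, and after its subtraction the difference of Lrp1 was 0.94, under the line that 2.63% of all genes then passed. Of the 64 genes within 5 Mb of its start, 45 were higher and 1 was more than 2-fold higher. Whether a shift shared along the chromosome takes part in the value of Lrp1 was not tested.

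Mrc2, also known as Endo180 or uPARAP, the receptor that binds and internalises collagens, had the largest difference of the 10 on this scale. It had 19.7 FPKM in WT and 45.8 FPKM in the KO-labelled library. The ratio was 2.33 and the difference 1.18 on the log2 scale, the 213th largest rise among the 10542 genes. Mrc2 lies at chr11:105182903-105242285 of GRCm39, on the plus strand, with 30 exons and 6684 bases in its main transcript. Its nearest genes on both sides had a median difference of -0.028, and after subtraction its value was 1.21. Within 5 Mb of its start, 0 of 114 genes were more than 2-fold higher. The subtraction took Lrp1 from 1.03 to 0.94 and Mrc2 from 1.18 to 1.21, so that the call of Lrp1 was lost. For Lrp1 the size of the subtraction depends on the range chosen. The median was 0.090 for its nearest genes, 0.16 within 5 Mb and 0.30 over chromosome 10.

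**Figure D2:**
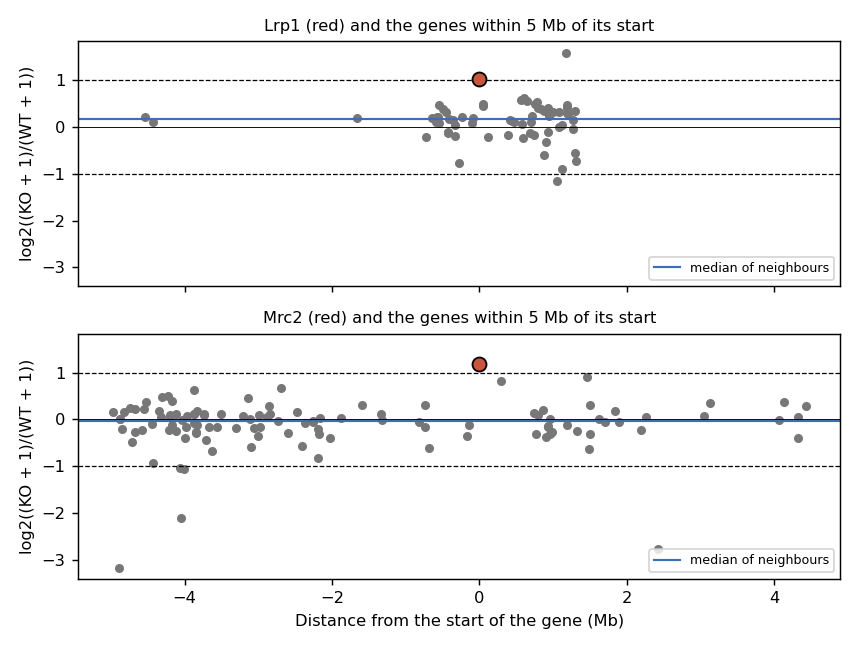
Difference between the libraries, log2((KO + 1)/(WT + 1)), of the genes past the filter against their distance in Mb from the start of Lrp1 (upper panel) and of Mrc2 (lower panel). The red points are Lrp1 at 1.03 and Mrc2 at 1.18, the dashed lines mark 2-fold and the blue lines mark the median of the other genes shown, 0.16 around Lrp1 and -0.033 around Mrc2.

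The promoters of 4 of the 10 genes, Lrp1, Scarb2, Cd36 and Stab1, were found in the RefSeq promoter table, which was made on GRCm38.p6. The 250 bases before the start given there are shown for 2 receptors. They are Lrp1, with the highest value and more than 2-fold higher, and Scarb2, the expressed receptor that was not higher. Each sequence matched a single place of its chromosome in GRCm39, on the minus strand, Lrp1 at chr10:127457018-127457267 and Scarb2 at chr5:92653517-92653766. The Lrp1 window adjoins the GENCODE span of its gene. That of Scarb2 lies inside the GENCODE span of its gene, chr5:92589169-92654692, so the 2 annotations differ in the start of Scarb2. The sequences are written 5′ to 3′ towards the gene, and capitals mark the GC box, GGGCGG on either strand.
Lrp1: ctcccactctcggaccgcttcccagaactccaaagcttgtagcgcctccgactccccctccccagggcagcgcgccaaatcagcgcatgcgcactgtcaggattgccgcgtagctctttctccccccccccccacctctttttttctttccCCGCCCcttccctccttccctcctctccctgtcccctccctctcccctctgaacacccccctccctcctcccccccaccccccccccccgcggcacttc
Scarb2: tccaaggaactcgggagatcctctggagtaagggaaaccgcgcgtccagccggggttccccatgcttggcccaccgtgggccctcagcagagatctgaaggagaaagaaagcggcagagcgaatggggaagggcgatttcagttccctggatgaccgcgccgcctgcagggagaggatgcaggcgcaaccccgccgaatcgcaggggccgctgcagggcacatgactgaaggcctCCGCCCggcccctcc
Each promoter held 1 GC box, which 32.7% of 32851 promoter windows of this length held at least once. G and C made up 67.2% of the Lrp1 window and 65.6% of the Scarb2 window, against a median of 52.4% over all windows. The Lrp1 window had 13 CG dinucleotides and that of Scarb2 had 19, with a median of 6. The E-box CANNTG, present in 66.2% of all windows, was found at 0 places in the Lrp1 window and at 1 in that of Scarb2. Neither window held TCACGTGA, TGANTCA or TATAAA, searched on both strands, which were present in 0.785%, 6.75% and 12.4% of all windows. GENCODE also annotates long non-coding RNAs that begin inside both windows. These matches are letters in a window, and no binding was measured.

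Of the class A receptors, which share a collagen-like stretch, only Colec12 was expressed above 1 FPKM. Colec12, a membrane collectin that binds oxidised lipoprotein and microbial sugars, had 14.02 FPKM in WT and 21.3 FPKM in the KO-labelled library. The ratio was 1.52 and the difference 0.57 on the log2 scale, and 8.19% of genes past the filter had a larger rise. Its place is chr18:9707593-9882644 of GRCm39, and its neighbours had a median difference of -0.015.

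The other class A genes were at the floor of the data. Scara3, a stress-induced member of the class, had 0.336 FPKM in WT and was listed at 0 in the KO-labelled library. Scara5, a ferritin receptor known from kidney and mesenchymal cells, had 0.018 FPKM in WT and was listed at 0 in the other. Msr1, the macrophage scavenger receptor for modified lipoprotein, was listed at 0 in WT and had 0.032 FPKM in the KO-labelled library. It lies at chr8:40034726-40095714 of GRCm39. The weight of such values can be estimated, because low values fell on steps that followed transcript length. On the most frequent step, taken as 1 sequenced fragment, the WT value of Scara3 corresponds to about 36 fragments, that of Scara5 to about 2 and the value of Msr1 to about 1. The genes past the filter among the receptors lay far from this floor, from about 1300 fragments for Scarb1 in either library to about 54000 for Lrp1 in the KO-labelled library.

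The zero of Scara3 is thus the one among the low receptors that does not rest on a few fragments. Of the 333 genes with 0.25 to 0.45 FPKM in the WT library, 23 were listed at 0 in the KO-labelled library, which is 6.91%. In the reverse direction it was 24 of 360 genes, or 6.67%. A zero can also be a failed estimate, and without counts the 2 cannot be told apart. Scara3 did not pass the filter, and its difference of -0.42 became -2.12 with 0.1 added in place of 1. For genes above 0 and under 0.05 FPKM in the WT library, such as Scara5 and Stab1, 43.5% were listed at 0 in the other library, and 42.4% in the reverse direction, where Msr1 belongs. Zeros are thus common at this level. Scara5 and Scara3 both lie on chromosome 14, at chr14:65903844-66002275 and chr14:66156569-66191401 of GRCm39, and 154294 bases lie between them. The nearest expressed genes around Scara3 had a median difference of -0.086, and within 5 Mb of its start 25 of 52 genes were higher.

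The CD36 family held an expressed pair and a gene near the floor. Scarb1, the receptor SR-BI that takes up cholesterol ester from high-density lipoprotein, had 18.4 FPKM in WT and 22.7 FPKM in the KO-labelled library. Its ratio was 1.23 and its difference 0.29 on the log2 scale. Scarb2 encodes LIMP-2, a lysosomal membrane protein that brings glucocerebrosidase to the lysosome. It had 31.3 FPKM in WT and 28.6 FPKM in the KO-labelled library, a ratio of 0.915 and a difference of -0.12, between the quartiles of all genes. Cd36, the fatty acid and thrombospondin receptor of adipocytes, muscle fibres, platelets and macrophages, had 0.072 and 0.080 FPKM, each about 7 fragments. No member of the family had a called difference. All 3 lie on chromosome 5, Cd36 at chr5:17986432-18094067, Scarb2 at chr5:92589169-92654692 and Scarb1 at chr5:125353547-125418176 of GRCm39. They are far apart there, and their neighbours had median differences of -0.041, -0.035 and -0.026.

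Stab1, the stabilin of sinusoidal endothelium and tissue macrophages that takes up modified lipoprotein and SPARC, had 0.004 FPKM in the WT library, about 1 fragment, and was listed at 0 in the KO-labelled library. Its transcript of 7999 bases has 69 exons, at chr14:30860970-30890598 of GRCm39. In these libraries Stab1 and Msr1, receptors of endothelium and macrophages, were therefore at or near 0. Of 10 endothelial markers 0 passed the filter and their summed value was 0.019 and 0.080 FPKM, with Pecam1 at 0.010 and 0.011 FPKM and Vwf listed at 0 and at 0.052 FPKM. Of 12 macrophage markers 2 passed, Cd14 at 19.6 and 18.4 FPKM and Cd68 at 2.85 and 1.06 FPKM. Of the same list, Adgre1, Itgam, Ptprc, Tyrobp and Aif1 were listed at 0 in both libraries. Csf1r had 0.054 and 0.078 FPKM, Lyz2 0.191 and 0.438 FPKM and Fcer1g 0.304 and 0.089 FPKM. Spi1 had 0.017 FPKM and was listed at 0 in the KO-labelled library. The summed value of the macrophage list was 23.0 FPKM in WT and 20.1 FPKM in the KO-labelled library. The adipocyte markers Adipoq, Plin1, Cidec, Lep, Cfd and Retn were listed at 0 in both, Fabp4 was listed at 0 and at 0.321 FPKM and Lipe had 2.56 and 1.21 FPKM, a sum of 2.56 and 1.53 FPKM.

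**Figure D3:**
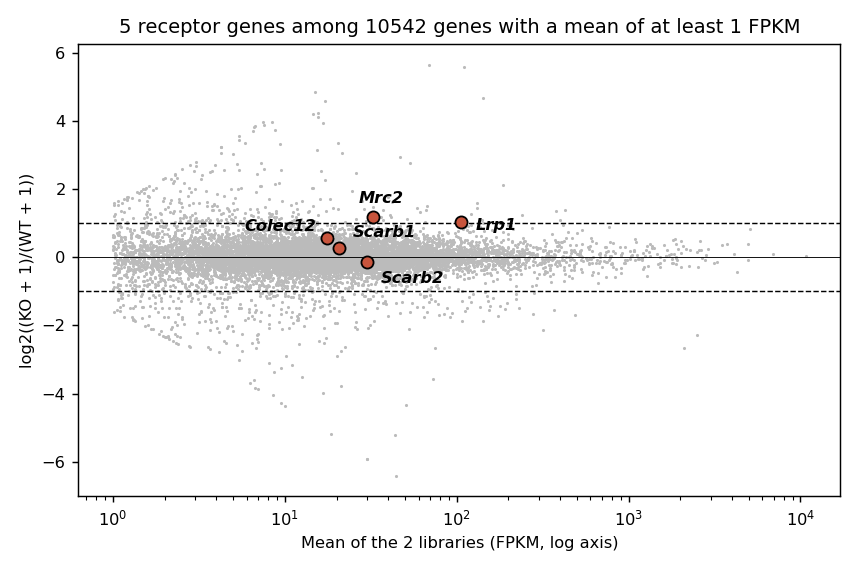
Difference between the libraries, log2((KO + 1)/(WT + 1)), against the mean of both in FPKM on a log axis, for 10542 genes in grey and for the 5 receptor genes past the filter in red. Mrc2 at 1.18 and Lrp1 at 1.03 lie just above the dashed 2-fold line, in a range that 2.84% of the genes pass, and Scarb2 at -0.12 lies within the bulk.

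The myoblast identity of the lines bears on where these receptors are read. Of 12 myoblast markers 9 passed the filter, with 4 called lower and 1 called higher in the KO-labelled library. Of all genes past the filter 3.43% were called lower and 2.84% higher. Since this list was chosen with earlier results of these data known, nothing is read from the counts. The list summed to 331.3 FPKM in WT and 151.5 FPKM in the KO-labelled library. Myod1 had 59.97 FPKM and was listed at 0, Des had 97.6 and 3.84 FPKM, Cdh15 16.6 and 0.701 FPKM and Chrna1 15.3 and 0.917 FPKM. Myf5, the marker called higher, had 9.14 and 20.3 FPKM. It lies on chromosome 10, and its neighbours had a median difference of 0.45. After subtraction of that median its difference went from 1.07 to 0.62, and the call was lost. Of 12 fibroblast and fibro-adipogenic progenitor markers 5 passed, with 1 called lower and 0 called higher, beside the same shares of all genes. The median difference of these markers was 0.039, with 3 of the 5 higher. Their summed value was 537.3 and 392.4 FPKM, a difference that lay mostly in Cd34, at 136.1 and 10.6 FPKM. Ly6a had 198.4 and 146.2 FPKM, Gsn 137.1 and 140.9 FPKM and, named after their values were seen, Pdgfrb 54.5 and 80.2 FPKM and Pdgfra 10.8 and 12.3 FPKM, while Lum, Tcf21 and Thy1 were listed at 0 in both. Under the filter, also named after their values were seen, Dcn had 0.272 and 1.68 FPKM and Dpt 0.041 and 0.493 FPKM. Pi16 had 0.068 and 0.085 FPKM and Col15a1 0.103 and 0.072 FPKM. The part of these marker differences in the values of Lrp1 and Mrc2 was not tested, and in bulk RNA more cells of a type and more RNA per cell cannot be told apart.

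Among the relatives of the 2 called receptors, none was called higher. Of the 11 other LRP family and sortilin genes past the filter, 0 were called higher and 1, Sorcs2, was called lower, at 9.79 and 2.00 FPKM. Of all genes past the filter, 2.84% were called higher and 3.43% lower. Lrp10 had 59.5 and 53.1 FPKM. The median of these 11 genes was -0.16, against 1.03 for Lrp1. Beside Lrp1, the closest relative by name, Lrp1b, was listed at 0 in both libraries. In the mannose receptor family Mrc2 stood beside Ly75, at 10.4 and 14.7 FPKM, and Pla2r1, which was more than 2-fold lower at 2.67 and 0.596 FPKM. Mrc1, the macrophage mannose receptor, had 0.006 and 0.007 FPKM. Among 17 other scavenger receptors 7 passed the filter and none was called in either direction, with a median of -0.082. Lamp1, of the macrosialin class, had 346.9 and 470.9 FPKM and Cd44 had 55.2 and 53.6 FPKM.

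Ligands and partners of LRP1, a list of 25 genes, had 22 past the filter, with 3 called higher and 0 called lower in the KO-labelled library and with a median of 0.27. That is 13.6%, beside 2.84% of all genes. Since this list too was chosen with earlier results of these data known, nothing is read from the share. The 3 called genes encode ligands that LRP1 internalises. The matricellular protein gene Thbs2 had 2.80 and 37.8 FPKM, the connective tissue growth factor gene Ccn2 had 17.5 and 62.1 FPKM, and the lipoprotein lipase gene Lpl had 0.893 and 17.8 FPKM. The urokinase gene Plau, chosen after its values were seen, had 10.04 and 20.6 FPKM, a difference of 0.97. The receptor chaperone gene Lrpap1, also chosen after its values were seen, had 11.97 and 12.2 FPKM, a difference of 0.025 beside the 1.03 of Lrp1. Of the 22 genes 13 had a higher and 9 a lower value in the KO-labelled library, and the list was not tested.

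Around Scarb2, 12 of the 13 lysosomal partners found passed the filter and 0 were more than 2-fold different. Their median was 0.19, with Psap at 492.3 and 570.4 FPKM and Cd63 at 1246 and 1378 FPKM. Around Scarb1 and Cd36, 10 of 18 lipid handling genes passed and 1 was more than 2-fold higher. That gene was Nr1h3, the liver X receptor alpha gene, at 0.219 and 1.81 FPKM. Its mean of 1.01 FPKM was just past the filter, through its value in the KO-labelled library alone. Fabp5 had 104.4 and 137.3 FPKM and Npc2 had 148.2 and 146.7 FPKM. The median was 0.0030. The difference of Scarb2, -0.12, and that of Scarb1, 0.29, lay within the range of these lists.

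**Figure D4:**
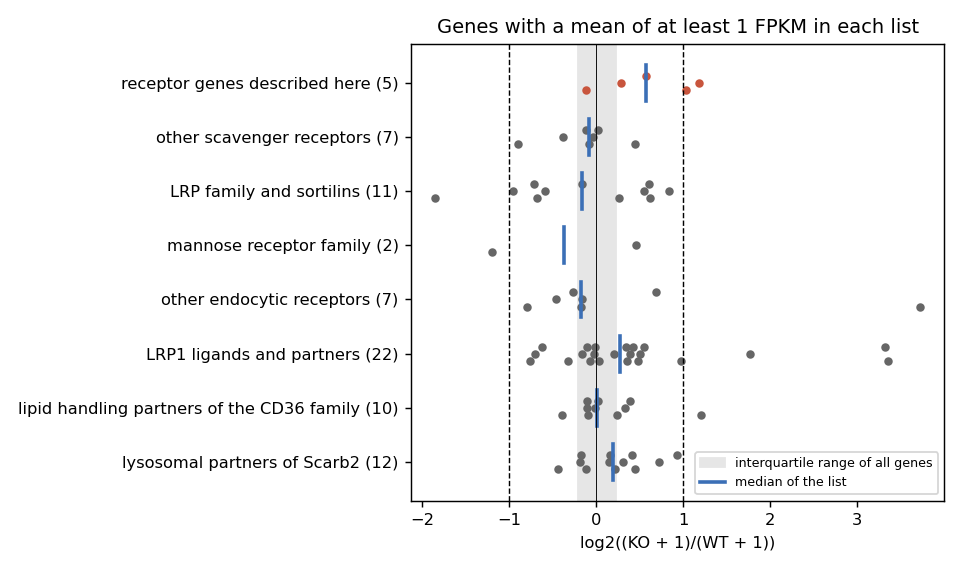
Difference between the libraries, log2((KO + 1)/(WT + 1)), of the genes past the filter in each list plotted, with 1 point per gene, the number of genes in brackets, the list median in blue and the range between the quartiles of all genes in grey. The receptor genes have a median of 0.57, with Lrp1 and Mrc2 past the dashed 2-fold line, and the medians of the other lists plotted run from -0.37 for the 2 mannose receptor relatives to 0.27 for ligands and partners of LRP1.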

How the data were processed

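RNA of 2 C2C12 libraries, 1 WT and 1 Gne KO, was measured. The deposited files of the authors hold a single value for each gene symbol, read here as FPKM from the column sums and the length-dependent steps of low values. The file names no unit, and TPM restricted to these genes would give the same ratios up to 1 factor per library, while differences of low genes, with 1 added to each value, would move. Per the submitters' processing notes, reads were trimmed with Trim Galore 0.6.6, aligned with STAR 2.7.9a and quantified with RSEM 1.3.3. The notes list GRCm38 and the methods GRCm39. The deposited description and the methods also name different library kits and sequencers.

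Of 21853 rows, 24 repeated a symbol and the higher was kept. Members and lists were chosen with earlier results of these data known. Named were all 10 members, Gne and, from each other list, up to 5 genes with the largest differences of more than 2-fold and a mean of at least 1, with the 2 of highest mean added where fewer than 2 genes were named so. Markers listed at 0 in both libraries are also named, and some items are not reported here. Positions came from GENCODE vM39. The value of 1 fragment was the most frequent value times (transcript length minus 200 bases) among genes of 0.01 to 0.1 FPKM, 34.0 in WT and 39.4 in KO, with 256 of 1300 and 288 of 1236 genes within 15% of it. This estimate was made after the values were seen, and read depth is otherwise unknown. On simulated data 200 of 200 planted changes and 0 of 10261 unchanged genes were called. The planted changes were well past 2-fold and only in genes far above the filter. The simulated noise was much narrower than the spread of the real differences. The outcome therefore checks the code and gives no error rate for the calls made here. Python 3.11.15, numpy 2.4.6 and pandas 2.3.3 were used. Alternatives were 2 pseudocounts, 2 filters, 2 scalings and subtraction of the median of 10 neighbours on each side.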

Additional observations from a re-analysis of the deposited data

How the results depend on the processing

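No paired analysis was possible because the groups share 1 replicate number and no test was made, and no library could be left out. The 2 receptors called higher became 1, Mrc2, with a pseudocount of 5, where 0.968% of all genes were called, and 1, again Mrc2, after the median of the neighbours was subtracted, where 2.63% were. The difference of Lrp1 was then 0.99 and 0.94. The count stayed 2 under the other 5 alternatives, and 0 were lower under each of the 7. The median of 0.57 became 0.028 without a filter, where the 5 receptors near 0 join, and stayed between 0.47 and 0.60 otherwise. Of 70 values of single receptors, 67 moved by less than the interquartile range of all genes, 0.44, and kept their side of the 2-fold line. The others were both values of Lrp1 and Scara3 at -2.12 with a pseudocount of 0.1. The values of the receptors near 0 rest on few fragments, Scara3 apart.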

Other observations

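Other uptake genes, from lists not used in the comparisons above, differed in single members. Of 17 other endocytic receptors 7 passed the filter and 1 was called higher in the KO-labelled library, beside 2.84% of all genes. The called gene was Igf2r, at 0.059 FPKM in WT and 12.97 FPKM in the KO-labelled library. Igf2r is the receptor that carries mannose 6-phosphate proteins and IGF2 to the lysosome. The nearest genes around Igf2r had a median difference of 0.14. M6pr, the other mannose 6-phosphate receptor, had 80.3 and 71.3 FPKM, and the transferrin receptor gene Tfrc had 86.2 and 62.3 FPKM.

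Of 30 genes of clathrin-mediated uptake and endosomal sorting 28 passed the filter, with a median of 0.027. Of these, 0 were called higher and 1 was called lower, beside 2.84% and 3.43% of all genes. That gene was Vps35, a retromer subunit, at 309.6 and 130.9 FPKM. It lies on chromosome 8 among genes with a median difference of -1.53, which is below its own value of -1.24. Ap2m1, an adaptor subunit, had 196.3 and 196.4 FPKM, and Rab7, of late endosomes, had 175.7 and 169.7 FPKM. Of 10 iron and ferritin genes all passed the filter, with 1 called higher and 1 called lower, beside the same shares of all genes. The exporter gene Slc40a1 was more than 2-fold higher, at 1.13 and 4.05 FPKM, and the haem oxygenase gene Hmox1 was more than 2-fold lower, at 196.0 and 96.5 FPKM. The median of the list was 0.091.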
